A study of Mus musculus with 35 samples.

Results

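Gastrocnemius muscle of male mice that carry a PGC-1alpha transgene was compared at 24 and 3 months of age, to describe how muscle with raised PGC-1alpha differs between old and young adults. The 12 libraries, 6 at each age, are all columns of the deposited table whose names start with MCK, and are called mTG at 24 and at 3 months. They belong to a series of 35 libraries that also holds wild type (WT) muscle, 6 libraries at each age, and muscle of a PGC-1alpha knockout (mKO), with 5 libraries at 3 months and 6 at 24 months. The labels name no drug, diet or training for any of these groups, and describe the material as bulk tissue. Column names carry no age, so SO in a name was read as 24 months, because 6 MKO columns carry it and 5 do not. MCK was read as the transgenic genotype, the one left after WT and MKO.

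PGC-1alpha, the product of Ppargc1a, is a transcriptional coactivator: it binds nuclear receptors and other transcription factors and raises the expression of genes for mitochondria, fatty acid oxidation and blood vessel growth. Endurance exercise induces it in muscle, and its constant excess in transgenic muscle gives fibres an oxidative character. MCK is also the short name of muscle creatine kinase, whose promoter is active in differentiated muscle fibres. The labels do not name the promoter of the transgene, and a transgene driven in fibres would not raise PGC-1alpha in the blood vessel, connective tissue or immune cells of the same sample.

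Levels are given as scaled TPM, length-corrected shares of all transcripts (TPM) divided by a factor per library that brings the median gene to the same level, and changes as log2 fold change ± SE from limma on log2(scaled TPM + 1), which understates the change of genes with low levels. Fold values are these changes turned back from the log2 scale, so they are folds of scaled TPM + 1 and not ratios of the medians. "Rose" and "fell" mean an adjusted p below 0.05. Depth cannot be read from TPM, so only the spread between libraries is measured, and where nothing says that libraries come from separate animals this spread may be partly technical. Ppargc1a had a median of 109 scaled TPM (96.1 to 112) in mTG at 3 months and 92.0 (64.0 to 107) at 24 months. In the deposited TPM, its 12 values between 43.7 and 83.6 all lay above the highest WT value of 18.8. The columns read as mKO had 5.2 to 15.7 at 3 months and 7.26 to 13.9 at 24 months. WT had 5.69 to 18.8 and 3.65 to 4.84, so mKO overlapped WT at 3 months and lay above it at 24 months. This level therefore does not check the mKO label. The transgenic level set the mTG libraries apart at both ages. The difference between the ages was -0.26 on the log2 scale (exact 2-sided permutation test, p = 0.0216; limma adjusted p = 0.362), and the ranges overlapped. Without MCK_3875 or MCK_3887 the exact test gave p = 0.0519. The fast myosin Myh4, which defines the white fibres of this muscle, was abundant in all 12 libraries (5530 to 7780 scaled TPM at 3 months, 5840 to 7850 at 24 months).

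The libraries differed in RNA makeup as well as in age. Nuclear rRNA took 0.0911% to 0.191% of TPM at 3 months and 0.384% to 1.33% at 24 months, a log2 difference of 2.55 (exact permutation test, adjusted p = 0.00433 over 4 RNA classes). Genes of small RNAs differed by 2.72 (adjusted p = 0.00433) and mitochondrial rRNA by 0.77 (adjusted p = 0.0231, both exact permutation tests). The 13 protein genes of mitochondrial DNA took a median of 43.5% (39.6% to 45.7%) at 3 months and 39.1% (31.7% to 46.7%) at 24 months, a log2 difference of -0.12 (exact permutation test, p = 0.214). On the first principal component of the 12 libraries, which held 35.9% of the variance, the young libraries lay between -20.9 and -13.2 and the old ones between 0.7 and 50.5, with MCK_SO_17 at 50.5 and MCK_SO_59 at 29.0 farthest out. Changes followed transcript length across 10876 nuclear protein-coding genes (Spearman rho -0.378, and -0.247 without MCK_SO_17), shorter transcripts being higher at 24 months. What part these features have in single results was not tested, except where values with length removed, without MCK_SO_17 or with the rRNA share in the model are given.

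Of 12399 genes tested in mTG muscle, 831 were higher at 24 months (6.7%) and 925 lower (7.46%), together 14.2%. All 6 old libraries lay above all 6 young ones for 384 genes (3.1%) and below them for 428 (3.45%), together 6.55%. Without MCK_SO_17 the counts were 481 higher (3.88%) and 525 lower (4.23%), together 8.11%. On unscaled TPM they were 390 (3.15%) and 351 (2.83%), together 5.98%, and with the length trend removed 876 (7.07%) and 877 (7.07%), together 14.1%. With the log2 rRNA share as a covariate, which itself separates the ages, 70 genes (0.565%) were higher and 81 (0.653%) lower, together 1.22%, and the median SE went from 0.104 to 0.175. Of the 212 called genes that are named here or in the lists, 147 remained called without MCK_SO_17, 134 on unscaled TPM and 43 with the rRNA share as covariate, all in the same direction. The plot of gene lists by share of members called shows matrix genes on the lower side and genes of denervated and growing fibres and of the cytosolic ribosome on the higher side.

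**Figure D1:**
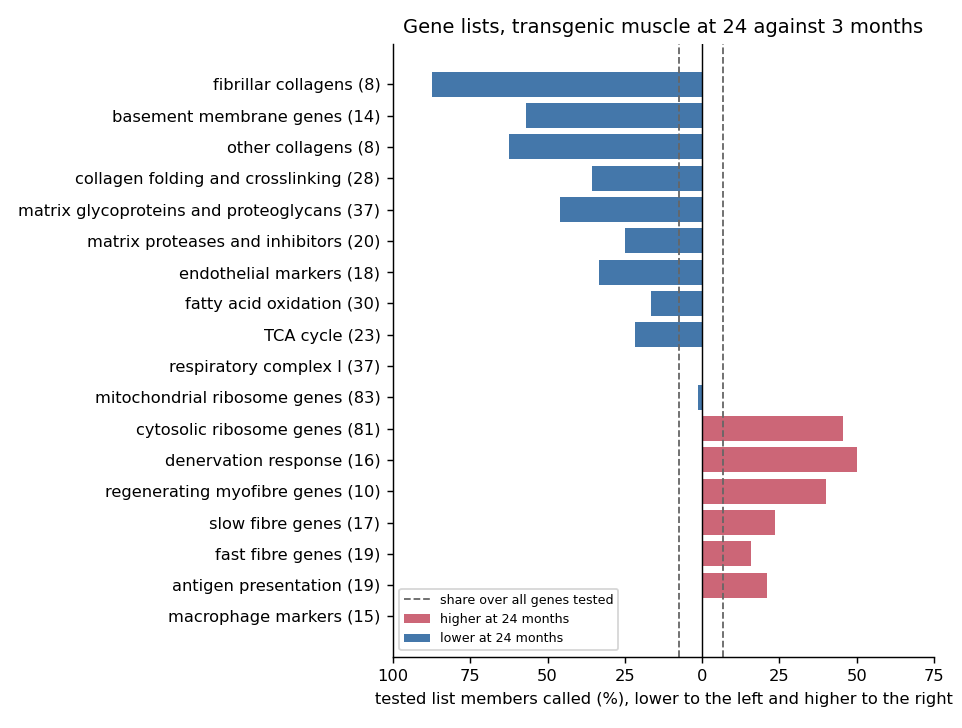
Share of tested list members called lower (left, blue) and higher (right, red) at 24 than at 3 months in mTG muscle, with the number of tested genes in brackets and dashed lines at 7.46% lower and 6.7% higher, the shares over all 12399 genes. Of the lists drawn, fibrillar and other collagens reach furthest to the left and the denervation response and cytosolic ribosome lists furthest to the right, and no complex I gene was called. The 5 erythroid genes, of which 4 rose, are not drawn.

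Genes of the extracellular matrix made up most of the 12 largest falls. Of 8 tested fibrillar collagens, 7 fell and 0 rose (median log2 change -0.78, against 0.00384 over all genes). Col1a1 and Col1a2 encode the chains of type I collagen, the main load-bearing fibre of tendon and muscle sheaths. Col1a1 (GRCm38, chromosome 11, 94936224 to 94953042, plus strand) was at a median of 13.7 scaled TPM (11 to 18) at 3 months and 3.25 (2.53 to 4.27) at 24 months, 3.49-fold lower (-1.80 ± 0.13, adjusted p = 1.48e-11). Col1a2 went from 24.8 (19.9 to 33.7) to 8 (4.99 to 9.23), a change of -1.66 ± 0.15. Both genes were lower in each old library than in any young one. Col3a1, the chain of type III collagen, which mixes with type I in thin fibres, had 47.8 scaled TPM (43.1 to 49.9) in young and 15.6 (13.7 to 20.5) in old muscle, 2.86-fold lower (-1.52 ± 0.14, adjusted p = 3.50e-09). The type V chains Col5a2, Col5a1 and Col5a3, which start and limit collagen fibre growth, changed by -0.84, -0.73 and -0.58. Col11a2 fell by 0.25. The exception was Col24a1, at 0.44 without passing the test. At an unadjusted p under 0.05, 1 fibrillar collagen was higher and 7 were lower by limma, and with the length trend removed 1 was called higher.

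**Figure D2:**
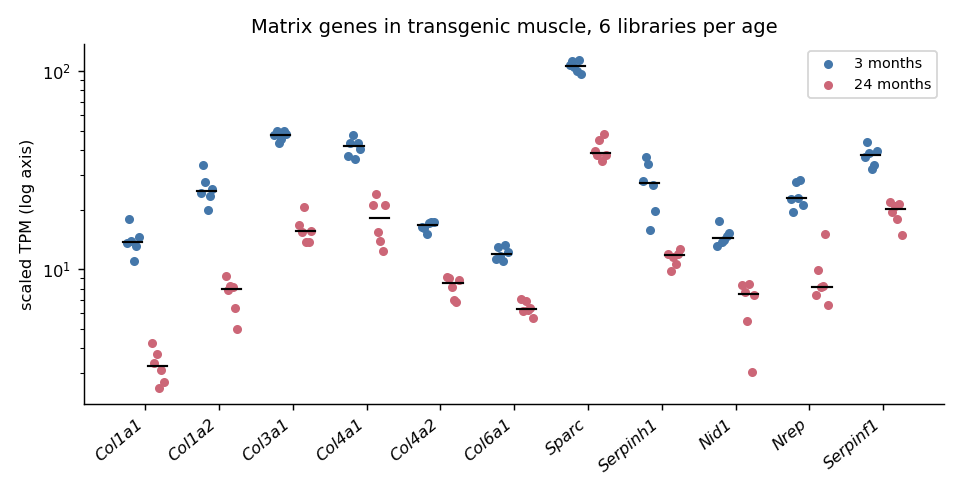
Scaled TPM on a log axis for 11 genes that fell, most of them of the matrix, in the 12 mTG libraries, blue at 3 months and red at 24 months, with a bar at each median. For each gene shown the red points lie below the blue ones, as for Col1a1 (2.53 to 4.27 against 11 to 18).

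In basement membranes, the sheets that wrap each fibre and capillary, 8 of 14 tested genes fell and 0 rose (median -0.32; at an unadjusted p under 0.05, 0 higher and 9 lower by limma). Col4a1 and Col4a2, the chains of the type IV collagen network, lie head to head on opposite strands of chromosome 8. Col4a1 went from 41.7 scaled TPM (36.1 to 47.6) to 18.2 (12.4 to 24.0), and Col4a2 from 16.8 (15.1 to 17.4) to 8.51 (6.81 to 9.17), changes of -1.19 ± 0.13 and -0.95 ± 0.08. Both genes fell, with no overlap between the ages. Nid1, which links collagen IV to laminin, went from 14.4 (13.1 to 17.5) to 7.55 (3.04 to 8.41), with the lowest value in MCK_SO_17 (-1.07 ± 0.19, and -0.90 without that library, adjusted p = 0.000715). Among laminins, Lamb1 (-0.47), Lama2 (-0.37) and Lamc1 (-0.50) fell, while Lamb2 (0.04), Lama4 (0.05) and Lama5 (0.28) did not pass the test. Of 8 other collagens tested, 5 fell, among them the type VI chains Col6a1 (-0.82 ± 0.07), Col6a2 (-0.77 ± 0.07) and Col6a3 (-0.70 ± 0.10), which anchor fibres to their surroundings.

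Of 28 tested enzymes and chaperones that fold, modify, export or crosslink collagen, 10 fell and 0 rose (median -0.27). Serpinh1, the collagen chaperone HSP47 of the endoplasmic reticulum, went from 27.3 scaled TPM (15.8 to 37.0) to 11.7 (9.81 to 12.7), 2.16-fold lower (-1.11 ± 0.15, adjusted p = 3.19e-06). The young libraries ranged widely, but the highest old value still lay below the lowest young one. Loxl2 and Lox, which crosslink collagen, changed by -0.74 and -0.35, Adamts2, which trims procollagen, by -0.57, and the lysyl and prolyl hydroxylases Plod1, P4ha2 and Plod2 by -0.41, -0.32 and -0.21. Creb3l1, a transcription factor of the secretory pathway, and Sec23a, a coat protein of transport vesicles, fell by 0.29 each.

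The sequences before the start sites of Col3a1 and Serpinh1 are shown because these genes represent both sides of the fall, a collagen and its chaperone, and because their windows hold no annotated exon. They are the 250 bases before each RefSeq start on GRCm38.p6, written 5′ to 3′ on the gene's strand: chr1:45311288-45311537, plus strand, for Col3a1 and chr7:99353240-99353489, minus strand, for Serpinh1. Capitals mark matches on either strand, which can overlap, to the CCAAT box, the GC box spelled GGGCGG, the TATA box spelled TATAAA and the E-box spelled CANNTG, where N is any base.
Col3a1: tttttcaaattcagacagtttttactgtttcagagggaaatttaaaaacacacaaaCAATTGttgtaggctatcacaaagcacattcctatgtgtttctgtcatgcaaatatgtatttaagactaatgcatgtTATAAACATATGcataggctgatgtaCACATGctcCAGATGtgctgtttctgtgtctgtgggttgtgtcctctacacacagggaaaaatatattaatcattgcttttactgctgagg
Serpinh1: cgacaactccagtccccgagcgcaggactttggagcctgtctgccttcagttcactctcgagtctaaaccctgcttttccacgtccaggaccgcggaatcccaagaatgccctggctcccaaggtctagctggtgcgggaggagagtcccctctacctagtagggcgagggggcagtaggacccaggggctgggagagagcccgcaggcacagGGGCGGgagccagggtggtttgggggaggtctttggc
The Col3a1 window holds TATAAA and 4 matches to CANNTG, and the Serpinh1 window 1 match to GGGCGG. Over the 12 largest falls, RefSeq windows were found for 10 genes: CCAAT was in 6 of them, GGGCGG in 6, CANNTG in 4 and TATAAA in 2. In all 32851 windows of this length the shares were 33.8%, 32.7%, 66.2% and 12.4%. These are shares of single windows, while a gene was counted if any of its windows matched, so the values are not strictly alike. 

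Of 37 tested matrix glycoproteins and proteoglycans 17 fell and 0 rose (median -0.30). The 17 include Nrep, described below as a neuronal protein, and the list does not hold Cilp, a matrix gene that rose. Sparc, a collagen-binding glycoprotein, was at 106 scaled TPM (96.2 to 113) at 3 months and 38.6 (35 to 48.2) at 24 months, 2.58-fold lower (-1.37 ± 0.09, adjusted p = 3.22e-12). No old library came near the young range. Fbn1, the fibrillin of elastic microfibrils, changed by -0.83 ± 0.11, Fn1, fibronectin, by -0.73, and Eln, elastin, by -0.45. Dcn, decorin, an abundant small proteoglycan, was at 177 (160 to 184) and 167 (143 to 198) and did not pass the test (adjusted p = 0.706), and neither did Lum, lumican (0.10, adjusted p = 0.533). Of 20 tested matrix proteases and inhibitors 5 fell, including Serpinf1 (-0.92 ± 0.09), the secreted factor PEDF, Mmp15 (-0.56 ± 0.07), a membrane-bound metalloprotease, Timp2 (-0.39 ± 0.07), an inhibitor of such proteases, and Ctsk (-0.38 ± 0.12), cathepsin K. Of 26 TGF-beta pathway genes 6 fell and 0 rose: Fstl1, Smad3, Smad4, Smurf2, Tgfbr2 and Ski. Smad3 and Smad4, which carry the signal to DNA, changed by -0.51 ± 0.10 and -0.50 ± 0.13, and Tgfbr2, a receptor, by -0.36 ± 0.10.

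The other large falls include Nrep, a neuronal protein also found in regenerating tissue, at 22.8 scaled TPM (19.4 to 28.2) and 8.18 (6.64 to 15.1) with -1.30 ± 0.14, and Tfrc, the transferrin receptor that brings iron into cells. Tfrc went from 51.0 (45.0 to 65.1) to 31.0 (14.2 to 34.5), with MCK_SO_82 and MCK_SO_31 the lowest (-1.04 ± 0.16, adjusted p = 4.94e-05). Fndc1, a fibronectin-domain protein, went from 7.46 (6.27 to 8.62) to 4.26 (1.38 to 5.67), a change of -0.86 ± 0.20. Fndc1 and Tfrc were separate between the ages but, like Nid1, were not called with the rRNA share as covariate (adjusted p = 0.302, 0.0602 and 0.187).

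Without MCK_SO_17, 6 of 8 fibrillar collagens, 8 of 14 basement membrane genes and 13 of 37 glycoproteins were called lower, and with the length trend removed 6, 7 and 13. With the rRNA share as covariate 6, 5 and 4 were, and none of the tenocyte, endothelial and TGF-beta genes.

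In bulk tissue, fewer cells of a type and less RNA per cell cannot be told apart. Of 9 tested tenocyte markers 5 fell and 0 rose (median -0.51), among them Tnmd (-0.99 ± 0.19), a membrane protein of tendon cells, Fmod (-1.12 ± 0.25) and Chad (-1.09 ± 0.28), and the summed level of all 11 markers ranged from 48.3 to 90.5 scaled TPM at 3 months and from 28.5 to 52.3 at 24 months. Of 16 fibro-adipogenic progenitor markers 4 fell and 1 rose: Cd34 (-0.80 ± 0.09), Mfap5 (-0.65 ± 0.14), Cd248 (-0.36 ± 0.08) and Serpinf1 fell, and Apod (0.69 ± 0.17), a lipid carrier, rose. Their summed level was 579 to 667 in young and 479 to 668 in old libraries, so the sums overlapped. Fmod and Kera of the tenocyte falls and Mfap5 and Serpinf1 of the progenitor falls are also in the matrix lists counted above. The counts of falls in these marker lists are therefore not separate from those of the matrix lists. The part of these cells in the fall of matrix genes was not tested. Of 18 endothelial markers 6 fell and 0 rose, with Tie1 (-0.35 ± 0.05), Ptprb (-0.43 ± 0.08), Cdh5 (-0.50 ± 0.11), the cadherin of vessel walls, and Pecam1 (-0.32 ± 0.08), and the sum was 275 to 307 against 246 to 293. Over all genes 7.46% fell. Vwf (0.59) and Cldn5 (0.47) had changes in the other direction without passing the test. At an unadjusted p under 0.05 by limma, 2 endothelial markers were higher and 10 lower. Notch3 (-0.76 ± 0.16), a receptor of mural cells, was 1 of 3 falls among 13 pericyte and smooth muscle markers. Of these Des rose, but it is also in the sarcomere list, so its rise cannot be assigned to mural cells. No marker of these lists was at 0 in all 12 libraries.

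The 12 largest rises include genes of muscle fibres, of immune cells and of the matrix. Ostn (chromosome 16, 27307489 to 27351212, plus strand), osteocrin or musclin, a secreted peptide that binds the clearance receptor for natriuretic peptides, was at 4.87 scaled TPM (4.2 to 5.73) at 3 months and 40.1 (29.9 to 47.4) at 24 months, 6.86-fold higher in scaled TPM + 1 (2.78 ± 0.14, adjusted p = 2.42e-15). The highest young library thus had less than the lowest old one by a wide margin. Sln, sarcolipin, which inhibits the calcium pump of the sarcoplasmic reticulum, went from 1.2 (0.797 to 1.93) to 11.8 (5.35 to 19.9), a change of 2.36 ± 0.31. Mss51, a mitochondrial protein of muscle, went from 0.997 (0.825 to 1.51) to 6.40 (2.97 to 20.3), with MCK_SO_25 far above the other old libraries (1.98 ± 0.31). Ankrd1, a stretch-responsive protein of the sarcomere and nucleus, had 1.62 (0.915 to 2.19) and 6.49 (3.73 to 12.7), and rose by 1.57 ± 0.26. In each of these genes the lowest old library was above the highest young one.

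**Figure D3:**
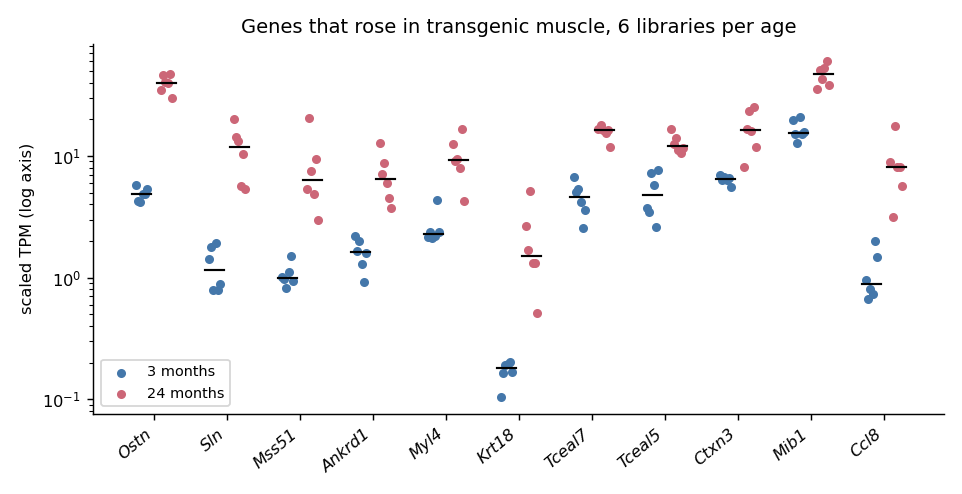
Scaled TPM on a log axis for 11 genes that rose in mTG muscle, blue for the 6 libraries at 3 months and red for the 6 at 24 months, with a bar at each median. The points of both ages are separate except for Myl4, where the lowest old value (4.28) lies just under the highest young one (4.34), and Ostn has the widest gap relative to its spread.

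Genes that muscle switches on when it loses its nerve had 8 rises and 0 falls of 16 tested (median 0.32). Besides Sln and Ankrd1 they were Krt18, an intermediate filament protein (0.179, 0.105 to 0.201, at 3 months and 1.51, 0.513 to 5.10, at 24 months; 1.26 ± 0.30), Ncam1, an adhesion molecule (0.87 ± 0.28), Gadd45a, a stress protein (0.69 ± 0.15), the acetylcholine receptor subunits Chrna1 (0.44 ± 0.14) and Chrnb1 (0.43 ± 0.08), and the transcription factor Runx1 (0.28). Ncam1 overlapped, with MCK_SO_17 at 1.46 in the range of the young libraries. On unscaled TPM 4 of the 16 were called, and with the rRNA share as covariate 2. Myog, a main activator of receptor genes after nerve loss, was at 1.85 (0.975 to 2.85) and 2.06 (1.23 to 3.58; adjusted p = 0.644), and the atrophy ligases Fbxo32 (0.07) and Trim63 (0.22) did not pass the test. Of 20 neuromuscular junction genes 5 rose, Colq (0.33 ± 0.10) and Rapsn (0.29 ± 0.10) beside the 3 just named. With unscaled TPM none of the 20 was called.

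Of 10 genes of regenerating or immature fibres, 4 rose and 0 fell (median 0.26). Myl4, the embryonic and atrial light chain, went from 2.28 scaled TPM (2.10 to 4.34) to 9.29 (4.28 to 16.6), with 1.55 ± 0.20 and adjusted p = 1.31e-06. Tnnt2, cardiac and embryonic troponin T, went from 1.28 (0.794 to 2.00) to 4.15 (1.98 to 5.13; 1.09 ± 0.15). In both genes MCK_SO_31 was the old library nearest to the young ones. Igfn1 rose by 0.89 ± 0.26, while the developmental myosins Myh3 (0.36) and Myh8 (0.13) and the cardiac actin Actc1 (-0.24) did not pass the test.

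Tceal7 and Tceal5, which lie near each other on the X chromosome and belong to a family related to transcription elongation factor TFIIS, rose as well. Tceal7 had 4.58 scaled TPM (2.58 to 6.74) at 3 months and 16.4 (11.9 to 18) at 24 months, 3.07-fold higher (1.62 ± 0.18, adjusted p = 9.40e-08). Tceal5 had 4.76 (2.59 to 7.69) and 12.1 (10.6 to 16.6), with 1.24 ± 0.17. Both were low in every young and higher in every old library. Mib1, a ubiquitin ligase of Notch ligands, went from 15.4 (12.7 to 20.7) to 46.9 (35.3 to 60.4; 1.44 ± 0.16), Ctxn3 from 6.46 (5.53 to 6.95) to 16.3 (8.16 to 25; 1.18 ± 0.16), and Cilp, a cartilage matrix protein, from 4.80 (3.88 to 6.12) to 11.8 (7.59 to 18.3; 1.12 ± 0.18). Cilp is thus a matrix gene that rose, and it is not in the matrix lists counted above. Lars2, the mitochondrial leucyl-tRNA synthetase, stood first by size at 2.80 ± 0.33, from 62.0 (53.0 to 99.4) to 477 (336 to 638), but 72 bases of its transcript are 98.611% identical to the rRNA-like gene Gm15564, and with the rRNA share as covariate its change was 0.45 (adjusted p = 0.350). Its level is therefore uncertain as a measure of Lars2 mRNA.

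Some genes of immune signals rose, while macrophage markers did not pass the test. Ccl8, a chemokine that attracts monocytes, went from 0.881 scaled TPM (0.662 to 2.00) to 8.04 (3.15 to 17.5), 4.2-fold higher in scaled TPM + 1 (2.07 ± 0.24, adjusted p = 3.41e-07). S100a9, a calcium-binding protein of neutrophils and monocytes, was at 1.06 (0.00 to 1.61) and 5.01 (3.41 to 8.29), with 1.77 ± 0.30 (adjusted p = 0.114 with the rRNA share as covariate). 1 young library had no S100a9, and both genes were separate between the ages. Ccl5 (1.05 ± 0.20) and Cxcl10 (0.71 ± 0.18) also rose, which makes 3 rises and 0 falls among 17 chemokines and cytokines, against 6.7% higher over all genes. Of 19 antigen presentation genes 4 rose and 0 fell, the class I genes H2-Q7 (1.02 ± 0.23), H2-Q6 (0.96 ± 0.23), H2-K1 (0.62 ± 0.18) and H2-T23 (0.34 ± 0.11), whose similar sequences make the split of reads between them uncertain. Without MCK_SO_17, 2 of the 19 were called, and with the rRNA share as covariate 0. Class II gene H2-Aa was at 0.36 (adjusted p = 0.0769). Complement C4b (1.04 ± 0.19) and Cfb (0.70 ± 0.19) were the 2 rises among 14 complement genes, of which 0 fell. With the rRNA share as covariate 1 of the 17 chemokines and cytokines and 0 of the 14 complement genes were called. Macrophage markers had 0 rises and 0 falls of 15 by limma (2 higher and 2 lower at an unadjusted p under 0.05), with Csf1r at -0.18, Adgre1 at -0.36 and Lyz2 at 0.20, and their summed level was 78.2 to 91.3 in young and 75.2 to 137 in old libraries. Igkc, the kappa chain of antibodies, rose from 1.99 (0.361 to 2.81) to 19.7 (6.08 to 62.7; 2.80 ± 0.64), highest in MCK_SO_17 and the only call among 4 tested lymphocyte markers. Of 5 erythroid genes 4 rose as well, the haemoglobin genes Hba-a1, Hba-a2 and Hbb-bt and the gene Alas2, which encodes no haemoglobin. Hba-a2 was at 98.5 (95.1 to 121) and 159 (136 to 395), highest in MCK_SO_17. Without MCK_SO_17 its change was 0.62 (adjusted p = 0.103), so the call was lost. Of the 5 erythroid genes 2 were called without MCK_SO_17, and 0 with the rRNA share as covariate. The part of blood left in the tissue in the immune genes was not tested.

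The windows before Ccl8 and Tceal7 are shown as examples from the rises, an immune and a muscle gene with no annotated exon in the 250 bases before the RefSeq start (GRCm38.p6, 5′ to 3′, capitals as above): chr11:82114935-82115184, plus strand, for Ccl8 and chrX:136223791-136224040, plus strand, for Tceal7.
Ccl8: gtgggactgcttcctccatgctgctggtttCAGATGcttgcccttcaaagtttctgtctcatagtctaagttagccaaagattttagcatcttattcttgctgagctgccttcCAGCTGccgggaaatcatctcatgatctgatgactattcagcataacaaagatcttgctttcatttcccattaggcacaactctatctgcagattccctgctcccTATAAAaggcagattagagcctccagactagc
Tceal7: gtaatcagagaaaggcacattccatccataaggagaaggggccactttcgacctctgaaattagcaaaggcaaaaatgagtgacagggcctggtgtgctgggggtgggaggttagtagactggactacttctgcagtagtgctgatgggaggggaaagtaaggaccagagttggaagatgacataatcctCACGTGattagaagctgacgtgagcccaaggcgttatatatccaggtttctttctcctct
The Ccl8 window holds TATAAA 32 bases before the start and 2 matches to CANNTG, and the Tceal7 window 1 match to CANNTG. Of the 12 largest rises 8 had a window: CANNTG was in 7, GGGCGG in 2, CCAAT in 1 and TATAAA in 1. A match to the MEF2 motif was found for none of these 8 genes and none of the 10 falling genes, against 2.92% of all windows. At so low a share, no match among so few genes is likely in any case, so nothing follows from it.

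The mitochondrial genes that PGC-1alpha is known for had few calls. None of 37 complex I, 4 complex II, 9 complex III and 16 complex IV genes of the nucleus was called by limma (at an unadjusted p under 0.05 complex I had 1 higher and 0 lower, complex III 0 and 1, complex IV 1 and 0, and complex II none). Medians were 0.13, 0.00, 0.10 and 0.15. Without MCK_SO_17 they were 0.02, -0.04, 0.00 and 0.03, and with the length trend removed 0.02, -0.05, -0.05 and -0.01. Of 17 ATP synthase genes 1 rose, Atpif1 (0.49 ± 0.14), the inhibitor of the enzyme, not called without MCK_SO_17 (adjusted p = 0.0901). The 13 protein genes of mitochondrial DNA had 0 calls (1 higher and 1 lower at an unadjusted p under 0.05) with changes from -0.51 to 0.42. Complex I subunit Ndufs8, for example, was at 398 scaled TPM (383 to 431) and 379 (349 to 682), and Tfam, which packages mitochondrial DNA, at 41.2 (39.1 to 47.4) and 41.0 (35.4 to 44.7). A p above the threshold does not show that these levels are equal.

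Fuel oxidation showed falls in part. Of 23 genes of the TCA cycle and its entry 5 fell and 0 rose, among them Dlat (-0.40 ± 0.12) and Pdhx (-0.16 ± 0.05) of pyruvate dehydrogenase and Dlst (-0.23 ± 0.07) and Ogdh (-0.29 ± 0.10) of oxoglutarate dehydrogenase. Citrate synthase Cs was at 460 scaled TPM (451 to 485) and 387 (309 to 445), lower in all 6 old libraries but without passing the test (adjusted p = 0.0610). Of 30 fatty acid oxidation genes 5 fell and 0 rose. Slc25a20, the carnitine carrier of the inner membrane, went from 76.8 (71.6 to 83.3) to 57.7 (52.6 to 61.7; -0.42 ± 0.08, adjusted p = 0.00045), Hadh changed by -0.31 ± 0.08, and Cpt1b and Cpt2, which move fatty acids in, by -0.29 ± 0.09 and -0.38 ± 0.11. Acsl1, which activates fatty acids, changed by -0.56 ± 0.15 with its lowest value, 58.2, in MCK_SO_17. Oxct1, the first step of ketone use, went from 261 (246 to 285) to 176 (115 to 203; -0.65 ± 0.13). Without MCK_SO_17, 1 of the 23 TCA genes and 3 of the 30 fatty acid oxidation genes were called, and on unscaled TPM 0 and 4. With the rRNA share as covariate none of the 23 and none of the 30 was called. Of 34 partners and regulators of PGC-1alpha 2 fell and 0 rose, a smaller share than the 7.46% lower over all genes: Ppara (-0.75 ± 0.23), the nuclear receptor of fatty acid use, and Ncoa1 (-0.50 ± 0.16), a coactivator. Neither was called without MCK_SO_17 (adjusted p = 0.0986 and 0.143), and Esrra, a main partner, was at 110 (103 to 120) and 106 (82.3 to 116).

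**Figure D4:**
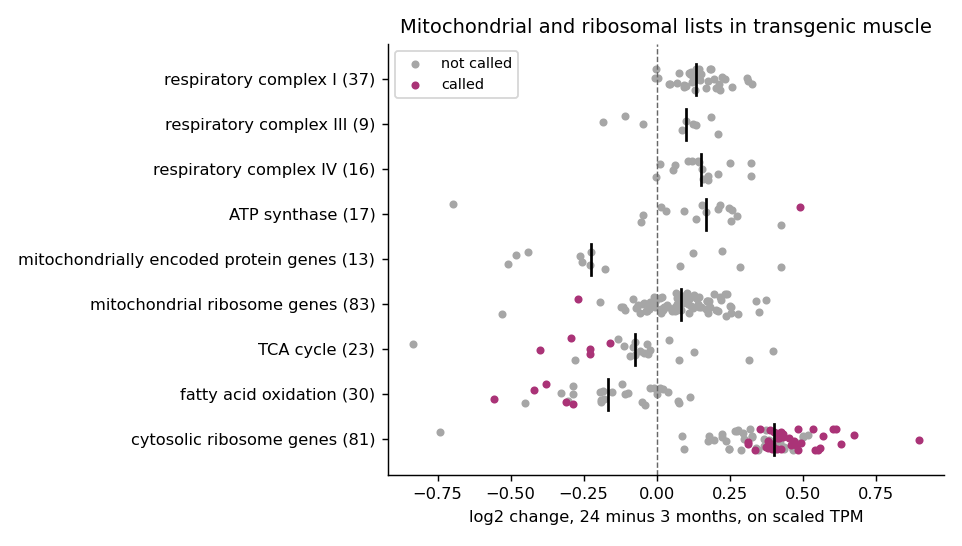
Log2 change from 3 to 24 months in mTG muscle for each tested gene of 9 lists, grey where not called and purple where called, with a bar at each median and the number of genes in brackets. Cytosolic ribosome genes lie to the right (median 0.40), nuclear respiratory chain genes slightly right of 0 with 1 call, and called TCA and fatty acid oxidation genes to the left.

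Mitochondrial translation is named in the title of the series. Of 83 mitochondrial ribosome genes 1 fell and 0 rose (median 0.08): Mrps2 went from 11.8 scaled TPM (11.5 to 12.4) to 10 (7.45 to 11), with -0.27 ± 0.07, and was not called without MCK_SO_17 (adjusted p = 0.0596). Of 58 translation factors and tRNA enzymes 4 fell and 2 rose, shares at or below those over all genes (7.46% lower and 6.7% higher), so these are single genes and no result about the list. Taco1, an activator of cytochrome oxidase translation, changed by -0.38 ± 0.08, Nsun4, which methylates mitochondrial rRNA, by -0.49 ± 0.13, Gfm2, a ribosome recycling factor, by -0.26 ± 0.07, and Mtif2, an initiation factor, by -0.24 ± 0.08. Mpv17l2 (0.43 ± 0.13) and Lars2 were the rises. Of 46 assembly factors of the respiratory chain 4 fell, Foxred1, Cox10, Atpaf2 and Coa5, by between 0.27 and 0.33, and Surf1 (0.26 ± 0.08) and Cox19 (0.25 ± 0.08) rose, again near the shares over all genes.

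Of 81 cytosolic ribosome genes 37 rose and 0 fell (median 0.40). Rpl23a went from 540 scaled TPM (499 to 593) to 689 (654 to 1040), with 0.46 ± 0.11 and adjusted p = 0.00432, and Rpl13 from 108 (98.9 to 119) to 149 (128 to 282; 0.61 ± 0.16). The highest old value of Rpl13 was that of MCK_SO_17. Without MCK_SO_17, 8 of the 81 were called (median 0.27), and with the rRNA share as covariate 0. With the length trend removed 38 were called, also at a median of 0.27. Ribosomal protein genes have many near-identical copies in the genome, so single values are uncertain. Among 37 cytosolic translation factors Eef2 (0.30 ± 0.06), Eif3e (0.34 ± 0.08) and Eif4b (0.25 ± 0.06) rose and Eif4e (-0.34 ± 0.06), the cap-binding protein, fell. These shares were near or below those over all genes (6.7% higher and 7.46% lower), so they are single genes and no result about the list. With the rRNA share as covariate 0 of the 37 were called.

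Of 17 slow fibre genes 4 rose and 0 fell, Sln, Pln (0.97 ± 0.23), phospholamban, Myl3 (0.68 ± 0.21) and Myh7b (0.48 ± 0.16), and of 19 fast fibre genes 3 rose and 0 fell, Myoz3 (0.65 ± 0.09), Mylpf (0.40 ± 0.13) and Mybpc2 (0.33 ± 0.09). Over all genes 6.7% rose and 7.46% fell. Without MCK_SO_17, 2 slow and 2 fast fibre genes were called, and with the rRNA share as covariate 2 and 0. Among the myosins that define fibre types, slow Myh7 was at 90.2 scaled TPM (67.1 to 198) and 113 (88.0 to 189), Myh2 at 296 (214 to 412) and 314 (269 to 455), Myh1 at 1300 (917 to 1620) and 1070 (792 to 1340), and Myh4 at 6530 and 6950. None of these 4 passed the test, and all overlapped between the ages. Genes of calcium handling had 6 rises and 1 fall of 29. Cacng1 (0.73 ± 0.12), a subunit of the voltage sensor, and Orai1 (0.69 ± 0.14), a channel for calcium entry, rose. So did Micu2 (0.45 ± 0.07) and Mcu (0.26) of the mitochondrial uniporter, while Srl (-0.38 ± 0.08), sarcalumenin, fell. The other rises were Sln and Pln, already counted as slow fibre genes. With the rRNA share as covariate 2 of the 29 were called.

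To see which of these changes also occurred in WT muscle, the calls were set beside those of WT at 24 against 3 months (1409 higher, 11.4%, and 1403 lower, 11.3%). Of the 831 genes higher in mTG 371 were higher in WT (44.6% of mTG, 26.3% of WT), and of the 925 lower genes 397 were lower in WT (42.9% and 28.3%). Opposite calls were made for 20 genes. In mKO 752 genes were higher (6.07%) and 615 lower (4.96%), and the counts shared with mTG were 188 higher (22.6% of mTG, 25% of mKO) and 180 lower (19.5% and 29.3%). Col1a1 changed by -1.57 in WT and -1.54 in mKO, and the difference between mTG and WT was -0.24 ± 0.18 (adjusted p = 0.547). For Sparc the difference between the age changes was -0.46 ± 0.13 (adjusted p = 0.0392), and the young level was higher in mTG than in WT (96.2 to 113 against 66.9 to 95.3).

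The difference between the age changes was tested directly as an interaction, mTG minus WT, with 219 genes higher (1.77%) and 213 lower (1.72%) in mTG, together 3.48%, and mTG minus mKO, with 207 (1.67%) and 320 (2.58%), together 4.25%. Both use the same mTG libraries and are not independent. The genotypes also differed in RNA makeup at 24 months: nuclear rRNA took 5.34% to 12.6% of TPM in old WT and 1.85% to 10.4% in old mKO, against 0.384% to 1.33% in old mTG, with at most 0.479% in any young library. Changes with age followed transcript length with rho -0.249 in WT and 0.277 in mKO, against -0.378 in mTG. Once the rRNA share entered the model, mTG minus WT had 23 calls and mTG minus mKO 105. Without the filter on low values mTG minus WT had 198 higher and 446 lower, and with a filter at a mean of 5 TPM 147 and 72, so the balance of directions depends on the filter. Ostn differed by 2.01 ± 0.20 against WT and 1.92 ± 0.20 against mKO (adjusted p = 1.27e-07 and 3.27e-07). Young WT had 26.1 scaled TPM (20.3 to 29.1) and old WT 40 (35.1 to 71.5). Young mTG lay far below young WT, and old mTG (29.9 to 47.4) overlapped old WT. Tceal7 and Car3 were also lowest in young mTG muscle. Tceal7 was at 18.7 (15.8 to 36.4) in young and 26.1 (15.8 to 36.7) in old WT, with a difference of 1.31 ± 0.25 between the age changes (adjusted p = 0.00181). Car3, carbonic anhydrase III, an enzyme abundant in slow fibres and fat, went from 164 (138 to 193) to 347 (241 to 416) in mTG but from 834 (646 to 865) to 711 (603 to 758) in WT, a difference of 1.23 ± 0.21 (adjusted p = 0.000635). Unlike Ostn, the old mTG values of Car3 stayed below all WT values.

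**Figure D5:**
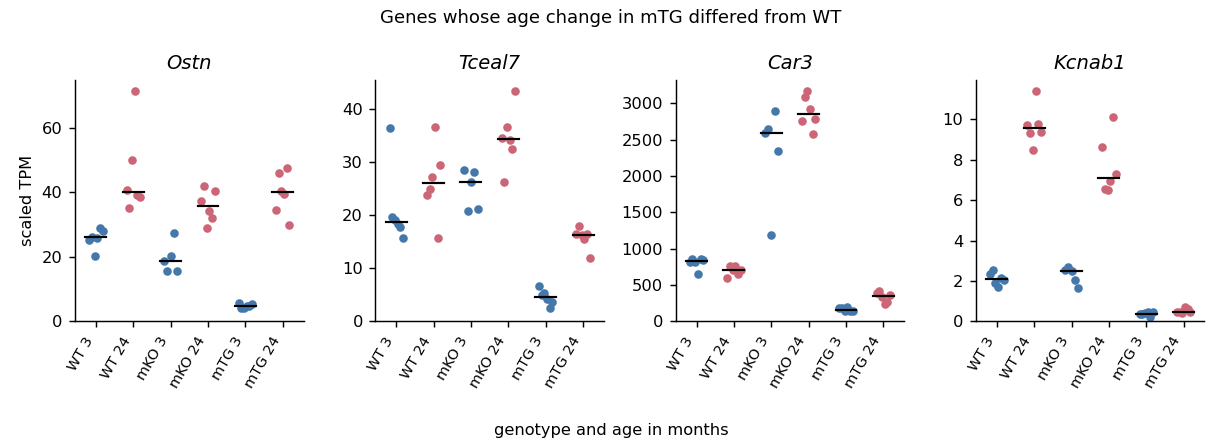
Scaled TPM on linear axes for Ostn, Tceal7, Car3 and Kcnab1 in the 6 groups, blue at 3 and red at 24 months, 1 point per library and a bar at each median. Ostn, Tceal7 and Car3 are lowest in young mTG muscle, and Kcnab1 lies between 0.208 and 0.721 in mTG and between 8.48 and 11.4 in old WT.

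The level of Kcnab1, a potassium channel subunit, rose with age in WT. It was at 0.388 scaled TPM (0.208 to 0.484) in young and 0.469 (0.414 to 0.721) in old mTG, against 2.09 (1.72 to 2.54) and 9.55 (8.48 to 11.4) in WT, a difference of -1.63 ± 0.13 between the age changes (adjusted p = 4.50e-10). Dkk3, a secreted glycoprotein, was at 0.632 (0.462 to 0.680) and 0.680 (0.593 to 0.951) in mTG and had a difference of -1.25 ± 0.22 (adjusted p = 0.22 with the rRNA share as covariate). All 12 mTG values of Kcnab1 and Dkk3 lay under 1 TPM, so that both genes were tested only through the other genotypes, and on the log2(scaled TPM + 1) scale these differences say little about change within mTG. Tmem37, a calcium channel subunit, above that limit in mTG (medians of 18.9 and 20.4), had -0.95 ± 0.21. On the fibre type side, Myh4 was lower in old than young WT (4740 against 7990 at the median) and differed by 0.85 between the age changes (adjusted p = 1.46e-05), and Myh13 (1.5 ± 0.30), Myh7 (1.67 ± 0.43) and Actc1 (1.81 ± 0.47), each lower in old WT, were not called in mTG. Of 32 sarcomere genes 6 were higher and 1 lower in this interaction. The pseudogene Nutf2-ps1 (1.93 ± 0.55) ranged from 4.63 to 50.4 among old mTG libraries and overlapped widely.

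Other genes had age changes that differed between mTG and WT or mKO, in direction or in size. Mamstr, a coactivator of MEF2 factors, fell in mTG from 12.6 scaled TPM (10.1 to 15.1) to 7.15 (5.70 to 10; -0.70 ± 0.14) and changed by 0.30 in WT and 0.50 in mKO, differences of -1.0 ± 0.20 and -1.20 ± 0.20 (adjusted p = 0.00239 and 0.000794). Akap13, a kinase anchor, was at -0.51 ± 0.21 in mTG without passing the test and 0.66 in WT, a difference of -1.17 ± 0.30. Tmem267 rose in mTG (1.03 ± 0.24) and differed from mKO by 1.48 ± 0.34. Lrtm1 fell in mTG (-0.76 ± 0.17) and rose in mKO (0.73 ± 0.18), a difference of -1.49 ± 0.24 (adjusted p = 0.000537). Igfn1, a protein of the sarcomere, rose less in mTG than in mKO (difference -1.73 ± 0.38). Ces1d, a carboxylesterase (1.35 ± 0.26), S100a9 (1.86 ± 0.43), Hba-a2 (1.26 ± 0.37) and Srebf1, the lipid synthesis factor (1.23 ± 0.27), had higher age changes in mTG than in mKO. Nnt has 2 gene IDs under 1 symbol, and the difference of -1.60 ± 0.47 is that of 1 of them. This ID ranged from 3.45 to 18.6 scaled TPM in young and from 3.88 to 12.7 in old mTG, a wide overlap. The other ID also overlapped widely, with 3.25 to 12.3 and 3.88 to 12.1. The median gene moved by 0.21 in mTG minus WT on unscaled TPM, against -0.00858 after scaling, so that 2136 genes were then higher and 132 lower (94.2% of calls higher, against 50.7%).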

How the data were processed

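RNA was measured in 35 gastrocnemius libraries, which the labels describe as made from total RNA with an Illumina TruSeq kit (v2). The authors deposited TPM per gene (54416 gene IDs), and the submitters' processing notes list GRCm38, cutadapt 1.16, Salmon 1.1.0 and edgeR without roles. Columns were assigned to groups from their prefixes, an inference described with the data. Each column sums to between 999999.5 and 1000000.3, so TPM keeps no depth and no counting interval can be given. Genes at 1 TPM or more in at least 5 columns were kept (12399), scaled by median of ratios and tested as log2(TPM + 1) by limma (version 3.58.1, R 4.3.3), where all 35 libraries entered a model of group means, with a trended prior and Benjamini-Hochberg adjustment over all genes. Single values were tested with exact 2-sided permutation tests, whose smallest p for 6 against 6 is 0.00216. On simulated data for 12399 genes, 80% of 1.5-fold and 94% of 2-fold changes were recovered, with 4 false calls. The changes, 100 of each size, were planted only in genes with a young mTG level of about 5 scaled TPM or more. Noise was drawn independently per gene, without shifts in rRNA share or transcript length and without an outlying library. The 4 false calls therefore do not measure the error in the real data. Gene types and positions are from GENCODE M21 (54163 IDs matched) and promoters from RefSeq.

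The members and gene lists were chosen with earlier results of these data known. Named were Ppargc1a, the 12 largest rises and falls among called nuclear protein-coding genes with a mean of at least 5 scaled TPM in 1 group and no overlap, the 6 largest interactions per direction (without the overlap filter), up to 6 called members per list, and members named for their role. Some genes, such as Myh4, Cs, Tfam, Myog and Dcn, were named after their values were seen. Alternatives covered scaling, pseudocount, filters, the libraries in the fit, array weights, transcript length, the rRNA share and leaving out each library.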

Additional observations from a re-analysis of the deposited data

Results flagged for a closer look

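In the young mTG group, MCK_3890 stood apart as the highest library for the nuclear rRNA share (0.191% of TPM) and the small RNA share (0.0791%). Of 60 groups of 6 tested in this way 2 were found, and chance alone marks about 1 in 20.

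The tested difference between age changes marked 24 gene results. In mTG minus WT these were Lars2 (-2.87), Kcnab1 (-1.63), Dkk3 (-1.25), Akap13 (-1.17), Mamstr (-1.0) and Tmem37 (-0.95) on the lower side, and Ostn (2.01), Nutf2-ps1 (1.93), Actc1 (1.81), Myh7 (1.67), Myh13 (1.5) and Tceal7 (1.31) on the higher side. In mTG minus mKO they were Lars2 (-1.89), Igfn1 (-1.73), Nnt (-1.60), Lrtm1 (-1.49), Kcnab1 (-1.25) and Akap13 (-1.21), and Ostn (1.92), S100a9 (1.86), Tmem267 (1.48), Ces1d (1.35), Hba-a2 (1.26) and Srebf1 (1.23). All are log2 differences, and both comparisons share the mTG libraries.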

How the results depend on the processing

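Against 1756 genes called with age in mTG, unscaled TPM gave 741, a filter at a mean of 5 TPM 1106 (of 6207 tested), a fit of the 12 mTG libraries alone 977 and the rRNA share as covariate 151; leaving out 1 library gave 1006 (without MCK_SO_17) to 2087 (without MCK_SO_31). Against 432 for mTG minus WT, unscaled TPM gave 2268, the filter 219 (67.1% of them higher, against 50.7%), no filter 644 (30.7% higher), array weights 910 and the rRNA covariate 23, with 323 to 507 when 1 library was left out. Against 527 for mTG minus mKO, unscaled TPM gave 167, no filter 261 (of 35658 tested), only the groups compared 192, array weights 330 and the rRNA covariate 105, with 210 (without MKO_3259) to 1007 (without MKO_3248). The cause of these differences was not tested. The change in mitochondrial rRNA was 0.67 (exact permutation test, adjusted p = 0.0577) as a ratio to nuclear protein-coding TPM. Leaving out 1 library gave -0.31 to -0.17 for Ppargc1a, 2.36 to 2.72 for nuclear rRNA, 2.60 to 2.87 for small RNA, 0.62 to 0.90 for mitochondrial rRNA and -0.17 to -0.06 for the 13 mitochondrial protein genes. No single named gene, RNA share or Ppargc1a level changed sign while called, but the larger side of the counts did: age in mTG had 831 higher and 925 lower, and 390 and 351 on unscaled TPM. No paired analysis was possible because the column names carry no replicate numbers that match the labels.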

Other observations

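Of 20 circadian clock genes 4 rose in mTG muscle and 0 fell, against 6.7% higher and 7.46% lower over all genes. With the rRNA share as covariate 1 of the 20 was called. At an unadjusted p under 0.05 by limma 7 were higher and 3 lower. Nfil3 (-0.52) and Arntl (-0.45) had negative changes without passing the test. Dbp, an output factor of the clock, went from 11.1 scaled TPM (6.34 to 20.5) to 23.4 (13.6 to 43.8), with overlap (1.13 ± 0.26, limma adjusted p = 0.00329), and Cry2, a repressor of the clock, from 3.25 (2.70 to 3.72) to 5.16 (4.15 to 7.12), without overlap (0.60 ± 0.08). Of 31 antioxidant genes 4 rose and 1 fell. Nqo1, a quinone reductase, went from 8.39 (6.73 to 11.1) to 14.2 (12.3 to 17.7), and its age change differed from that in WT by 0.57 ± 0.13 (adjusted p = 0.00956).

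Of 16 tested muscle-secreted factors 1 rose, Ostn, and 4 fell. Apln, apelin, went from 2.08 scaled TPM (1.95 to 2.50) to 0.922 (0.705 to 1.23), and its age change differed from that in WT by -0.47 ± 0.10 (limma adjusted p = 0.00329). Among 34 autophagy and lysosome genes 3 rose and 2 fell, near the shares over all genes (6.7% and 7.46%). Sqstm1, the cargo receptor p62, went from 187 (155 to 195) to 234 (218 to 268), with no overlap. Of 14 cell division genes the D cyclins Ccnd3 (-0.68), Ccnd2 (-0.59) and Ccnd1 (-0.35) fell, and Aurka (0.76) and Rrm1 (0.26) rose.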
